A study of Mus musculus with 6 samples.

Results

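The protein components of the cytosolic ribosome were followed in mouse myeloid cells by bead array. Members were all probes whose platform symbol is Rpl or Rps and a number, with no suffix other than a, x, y or l, together with Rplp0, Rplp1, Rplp2 and Rpsa. Kinases of the Rps6k family, pseudogenes and predicted genes were left out. The rule found 88 of 45281 probes, which stand for 59 of 19057 named genes, 24 of the small subunit and 35 of the large. A probe was kept where its detection p was under 0.05 on at least 2 of 6 arrays, and 72 of the 88 probes and 53 of the 59 genes passed, 22 of the small subunit and 31 of the large. The other 6 genes, Rpl6, Rpl14, Rpl17, Rpl39l, Rps20 and Rps23, read between 93.3 and 130.6 on every array, close to the array medians of 113.5 to 131.9, and gave no level here. Rpl5, Rpl11 and Rpl35a were not analysed here.

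All cells were splenic CD11b+Gr-1high cells of mice on an H-2b background, sorted to above 97% purity in 2 independent experiments. The study, on how STAT and IRF-8 regulate myeloid-derived suppressor cells, compared 3 groups of 2 arrays each. Wild-type mice without a tumor were the controls. IRF8 KO mice, also without a tumor, lack a transcription factor that directs myeloid progenitors towards monocytes and dendritic cells. The third group were wild-type mice that carried a tumor grown from AT-3, a mouse mammary carcinoma cell line. The labels give no age, sex or strain name, do not describe the KO allele, and do not say how many animals an array stands for or which experiment it came from. The p-values therefore measure only the spread between these arrays, which may be technical.

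A cytosolic ribosome joins a small subunit, which decodes mRNA, to a large subunit, which forms the peptide bond and holds the exit tunnel for the new chain. Its proteins are made in matched amounts, and in mammals most of their mRNAs begin with a C followed by a run of pyrimidines, the 5′ terminal oligopyrimidine or TOP motif, through which growth signals set their translation. In the granulocyte lineage, dividing progenitors and promyelocytes are rich in ribosomes, and ribosome content falls as neutrophils mature.

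The AT-3 arrays were dimmer than the others. Over all probes the AT-3 arrays averaged a signal of 284 and 265, where wild type had 397 and 379 and KO had 407 and 421. Irf8 itself read 221.6 and 192.3 in wild type, 127.1 and 156.7 in KO and 367.9 and 253 in AT-3. It was 3.22-fold lower in KO than in wild type (limma, Benjamini-Hochberg adjusted p = 0.0063), and whether its probe lies in a deleted part of the gene is not known. All 15 neutrophil markers on the array were detected, and their summed signal ranged from 159340 to 169229 on wild-type, 208100 to 224921 on KO and 163394 to 175140 on AT-3 arrays. Single markers moved in both directions. Against wild type 7 were called higher and 2 lower in KO, with log2 differences of -2.25 to 7.44. In AT-3 it was 8 and 2, from -2.08 to 5.84. Of all features 15.4% were higher and 16.5% lower in KO, and 17.3% and 17.6% in AT-3. Markers of other cells also moved with the groups. All 11 monocyte and macrophage markers were detected, with sums of 12775 to 15797 on wild-type arrays against 2050 to 2132 on KO and 2157 to 2448 on AT-3 arrays. Against wild type 10 of these 11 were lower in KO, while in AT-3 8 were lower and 2 higher, by up to 3.51. In AT-3 against KO 4 were higher and 1 lower, where 6.16% and 5.34% of all features were. Of 9 erythroid markers 5 passed the filter and 1 was detected on no array, with sums of 17415 to 25750 on wild-type, 1613 to 2168 on KO and 78843 to 112817 on AT-3 arrays. Of 10 T and NK cell markers 6 passed and 2 were detected on no array, with sums of 2521 to 2715, 4841 to 6489 and 2163 to 2302 in the same order. Of 10 progenitor markers 4 passed and 3 were detected on no array, with sums of 1263 to 1315, 2751 to 3145 and 1343 to 1466, and Kit and Prom1 were higher in KO than in wild type. Of 8 B cell markers 6 passed and 2 were detected on no array, with sums of 1100 to 1136, 1573 to 1868 and 977 to 1011, and Cd79b and Vpreb3 were higher in KO than in either other group. Of 20 proliferation genes 16 passed and 2 were detected on no array, and 15 of the 16 were higher both in KO and in AT-3 than in wild type. Their sums were 2739 to 2937 on wild-type arrays, 32304 and 11067 on KO arrays 1 and 2, and 8743 to 9119 on AT-3 arrays.

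**Figure D1:**
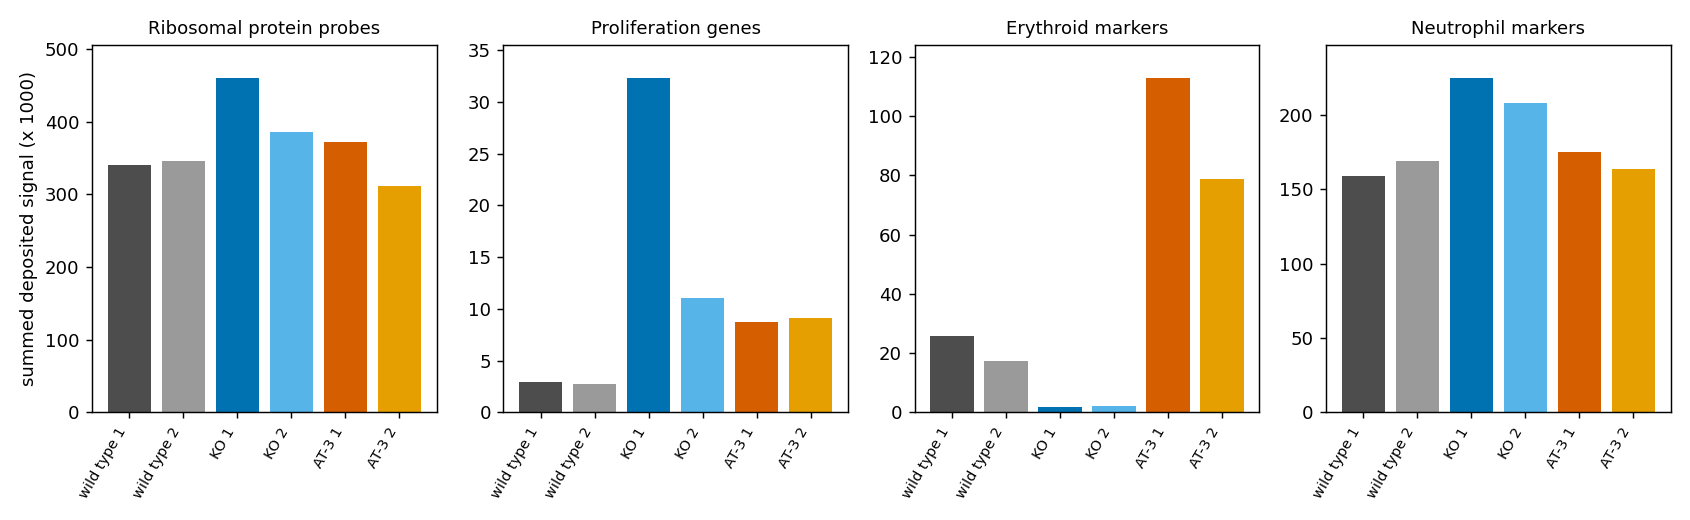
Summed deposited signal, divided by 1000, on a linear scale from 0, on each of the 6 arrays. Shown are the brightest probe of each of the 53 detected ribosomal protein genes and 3 lists of marker genes. The ribosomal protein sum is highest on KO array 1 and differs less between arrays than the proliferation and erythroid sums, which range from 2739 to 32304 and from 1613 to 112817.

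Before any scaling, the brightest probes of the 53 detected genes together read 340735 and 345998 in wild type, 460378 and 385775 in KO, and 371953 and 311898 in AT-3. The wild-type and AT-3 groups overlap on this measure. As a share of all signal on an array, the same probes took 1.9% and 2.02% in wild type, 2.5% and 2.02% in KO and 2.9% and 2.6% in AT-3. Both AT-3 arrays lie above the other 4 on this share. After background correction, quantile normalization and log2 (neqc in limma), the median of the 53 detected members was 11.84 and 11.87 in wild type, 12.67 and 12.14 in KO and 12.84 on each AT-3 array. Percentiles were taken by deposited signal among all 45281 probes of an array, most of them not detected. The median member sat at the 98.6th percentile on both wild-type arrays, at the 99.3rd and 98.9th on the KO arrays and at the 99.4th on both AT-3 arrays. The arrays therefore place the median detected member, each gene taken at its brightest probe, among their brightest probes. The 3 groups fall in the order wild type, KO, AT-3 on the normalized scale. In sorted bulk samples fewer cells of a type and less RNA per cell cannot be told apart.

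The comparison of AT-3 with wild type asks how splenic granulocytic cells of a tumor-bearing mouse differ from those of a healthy one. Ribosomal protein mRNAs were higher in AT-3 across both subunits relative to the other genes on the arrays. Of the 53 members 29 were called higher (limma, Benjamini-Hochberg adjusted p under 0.05 over all features) and 24 did not pass, against 17.3% of all 12492 features called higher. No member was called lower in limma, and at an unadjusted p under 0.05 there were 36 higher and 0 lower. The share of all features at that unadjusted threshold is not given here, but cannot be below the 17.3% called higher. The median member differed by 0.81 on the log2 scale and the median of all features by -0.01. Signals of the 2 groups did not overlap for 50 members, 46 higher in AT-3 and 4 lower, where 35.4% and 36.5% of all features stood apart in those directions. The small subunit had 10 of 22 members higher, with a median of 0.72, and the large subunit 19 of 31, with a median of 0.87.

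**Figure D2:**
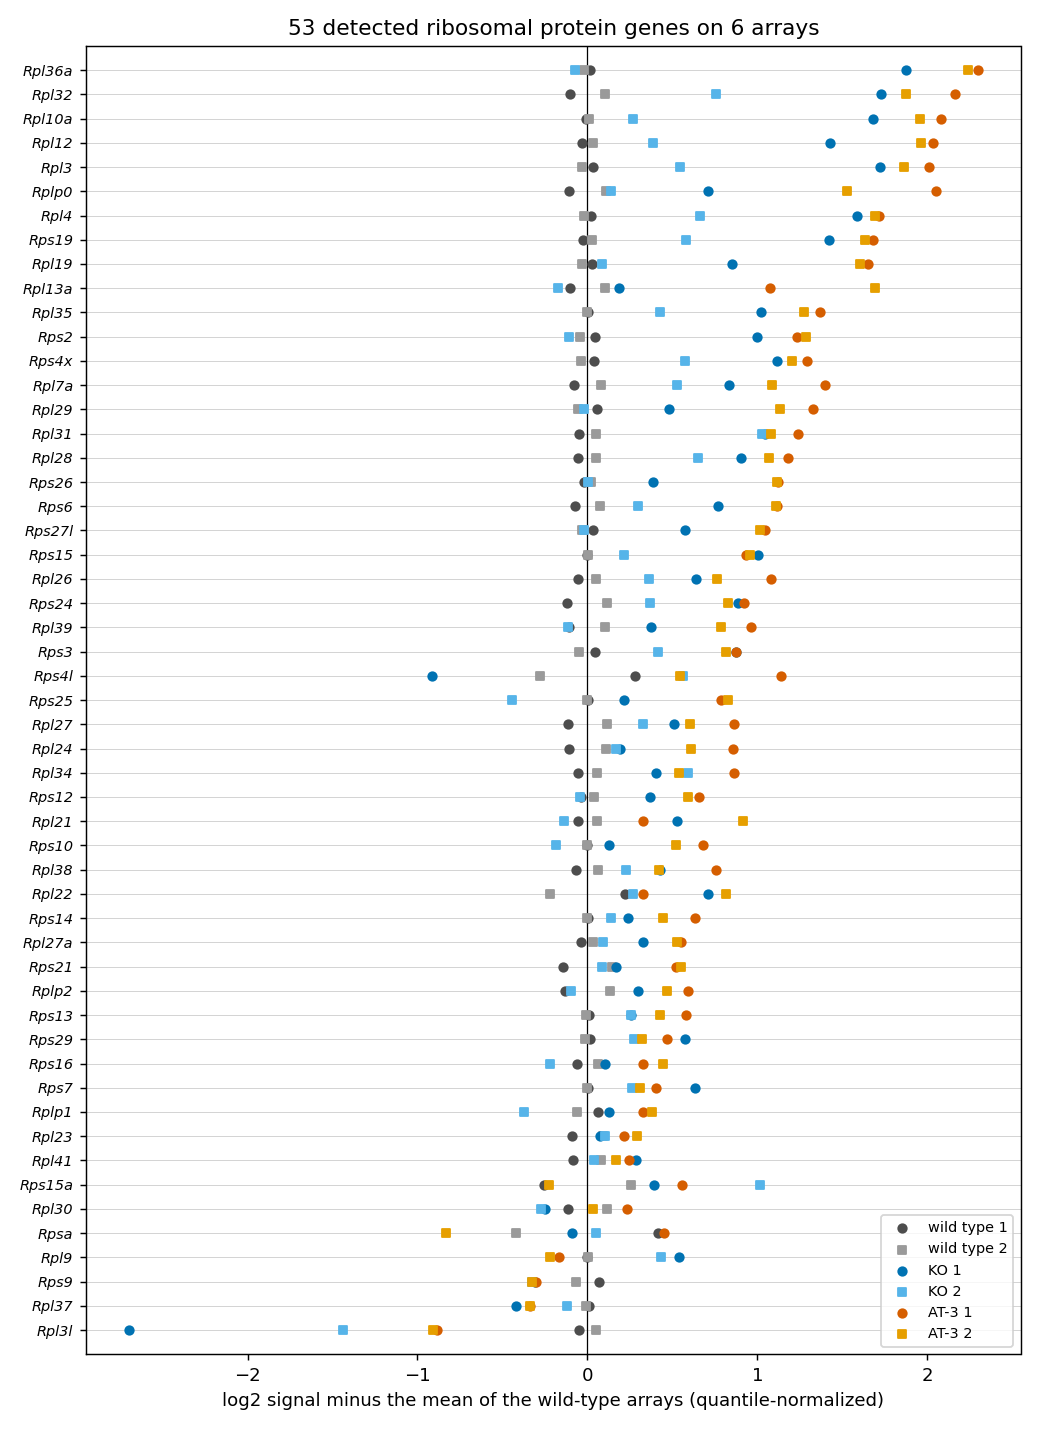
Normalized log2 signal of each of the 53 detected ribosomal protein genes on the 6 arrays, minus the mean of the wild-type arrays, with genes ordered by the AT-3 difference. Both AT-3 points lie to the right of both wild-type points for 46 genes, and the KO points of 1 gene are often far apart.

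Large-subunit proteins led. Rpl36a, which lies at the exit site for tRNA, read 878.7 and 795.1 in wild type, 2932.7 and 885.4 in KO and 2012.9 and 1761.8 in AT-3 as deposited. On the normalized log2 scale these are 9.35 and 9.31, 11.21 and 9.26, and 11.63 and 11.57. Both AT-3 arrays and KO array 1 stood above wild type, while KO array 2 lay at the wild-type level. The AT-3 difference was 2.27 ± 0.55 (SE, 2 arrays per group; adjusted p = 0.0177).

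Rpl32, a further large-subunit protein, had log2 signals of 10.90 and 11.11 in wild type, 12.73 and 11.76 in KO and 13.17 and 12.88 in AT-3. The 3 groups do not overlap, and AT-3 exceeded wild type 4.06-fold (2.02 ± 0.34, adjusted p = 0.00469). Rpl10a forms the L1 stalk that releases spent tRNA, and it went from 11.09 and 11.11 in wild type to 13.18 and 13.06 in AT-3 (2.02 ± 0.42, adjusted p = 0.0103). Rpl12, at the base of the other stalk, went from 10.47 and 10.54 to 12.54 and 12.47 (2.00 ± 0.34, adjusted p = 0.00493). Rpl3, whose finger reaches the catalytic centre, went from 11.37 and 11.31 to 13.35 and 13.20 (1.94 ± 0.37, adjusted p = 0.00755). For these 3 genes no AT-3 array overlapped a wild-type array, and KO array 2 lay nearer to wild type than KO array 1 did.

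Rpl4, which lines the exit tunnel, rose from 7.47 and 7.42 to 9.16 and 9.14 (1.70 ± 0.31, adjusted p = 0.00655). Rpl19 rose from 9.79 and 9.73 to 11.41 and 11.36 (1.63 ± 0.28, adjusted p = 0.00536). Rpl13a, which in human monocytes also silences inflammatory mRNAs when it leaves the ribosome, rose from 7.40 and 7.61 to 8.58 and 9.20 (1.39 ± 0.28, adjusted p = 0.00906). Its KO arrays, at 7.69 and 7.33, straddled the wild-type values. The 11 other large-subunit genes called higher were Rpl35, Rpl7a, Rpl29, Rpl31, Rpl28, Rpl26, Rpl39, Rpl27, Rpl24, Rpl34 and the stalk protein Rplp0, with log2 differences of 0.70 to 1.79.

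The stalk of the large subunit, built from Rplp0, Rplp1 and Rplp2, recruits the GTPases that drive elongation. Its 3 genes differed in signal range and in call. The single detected probe of Rplp0 read 144.9 and 142.3 in wild type, 212.0 and 175.2 in KO and 229.0 and 184.6 in AT-3, not far above the array medians. It was nonetheless called higher in AT-3 (1.79 ± 0.29 on the log2 scale, adjusted p = 0.0043), and a second Rplp0 probe was detected on no array. Rplp1 was bright in all groups, at 14.21 and 14.09 in wild type and 14.48 and 14.53 in AT-3 (0.36 ± 0.24, adjusted p = 0.293). Rplp2 was at 12.92 and 13.18 against 13.65 and 13.52 (0.53 ± 0.24, adjusted p = 0.123). Neither Rplp1 nor Rplp2 passed, though their AT-3 signals lay above both wild-type signals.

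In the small subunit Rps19, the gene most often mutated in human Diamond-Blackfan anemia, had the largest difference. Its deposited signals were 4607 and 4610.3 in wild type, 11855 and 6798.1 in KO and 9252.1 and 7919.8 in AT-3, or 11.84 and 11.89, 13.29 and 12.45, and 13.55 and 13.50 on the normalized log2 scale. AT-3 exceeded wild type by 1.66 ± 0.30 (adjusted p = 0.00604), and these groups do not overlap on either scale, while the deposited KO signals span the AT-3 ones. Rps2, at the mRNA entry channel, rose by 1.26 ± 0.35 (adjusted p = 0.0295) and Rps4x, encoded on the X chromosome, by 1.25 ± 0.25 (adjusted p = 0.00835). Rps26, which contacts mRNA upstream of the start codon, rose by 1.12 ± 0.22 (adjusted p = 0.00854). Rps6, the substrate of S6 kinase, was at 11.56 and 11.71 in wild type and 12.75 on each AT-3 array (1.11 ± 0.24, adjusted p = 0.0112). Rps27l, Rps15, Rps24, Rps3 and Rps25 were also higher, by 0.81 to 1.03.

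The genes mutated in human Diamond-Blackfan anemia were only in part called. Of the 5 of them measured here, Rps19, Rps24 and Rps26 were higher in AT-3, by 1.66, 0.88 and 1.12. Rps10 was at 12.14 on both wild-type arrays and 12.82 and 12.66 in AT-3 (0.60 ± 0.22, adjusted p = 0.0704). Rps7 was at 12.08 and 12.07 against 12.48 and 12.39 (0.36 ± 0.22, adjusted p = 0.251). These last 2 did not pass.

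Of the 24 members that did not pass, 19 had a positive difference and 5 a negative one. Rpl3l, Rpl37, Rps9 and Rpl9 had AT-3 signals below both wild-type signals, with differences of -0.90, -0.34, -0.31 and -0.19, and Rpsa overlapped (-0.19). The 5 members with the highest wild-type readings were Rps9, Rpl41, Rpl23, Rpl37 and Rps29, and none of them was called in any comparison under the main scaling. Rps9 read 28045.1 and 26526.6 in wild type, 22008.3 and 23561.5 in KO and 17481.1 and 15841.8 in AT-3 as deposited, and after normalization the values were 14.71 and 14.58, 14.34 and 14.32, and 14.35 and 14.32. Rpl41 was at 14.35 and 14.51 in wild type and 14.68 and 14.60 in AT-3 (0.21 ± 0.21, adjusted p = 0.493). At the other end Rpl21, Rpsa, Rps15a, Rplp0 and Rpl22 had the lowest readings. Rpl21 and Rpsa were the only 2 of the 53 not detected on all 6 arrays, Rpl21 on neither wild-type array, so its AT-3 difference is a bound of at least 1.22-fold, which did not pass (adjusted p = 0.158). Rpl22 (0.57 ± 0.29) and Rps15a (0.17 ± 0.36) did not pass either.

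How often a member was called varied with its signal under the main scaling. Of 9 members with a mean log2 signal of 10 to 12, 9 were higher in AT-3, where 24.3% of all 1300 features in that range were. Between 12 and 14 it was 16 of 27, against 28.2% of 408 features. Above 14 it was 0 of 6 (Rps9, Rpl41, Rps29, Rpl23, Rplp1 and Rpl37), against 8.62% of 58 features, and the median difference of those 6 was 0.23. None of the 6 had an unadjusted p under 0.05 either. Under cyclic loess and with the medians of detected probes set equal 4 of them were called higher, namely Rpl23, Rpl41, Rplp1 and Rps29 (0.83, 0.85, 0.92 and 0.97 under cyclic loess), so the absence of calls at the top does not hold under every scaling. The brightest member signal on any array was 28045, and the highest signals on the arrays were 37558 to 41719. The part of signal compression in these differences was not tested.

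The size of the AT-3 difference depended on how the arrays were put on 1 scale, because the AT-3 arrays were dimmer for most genes. With background correction but no scaling between arrays, the median member differed by 0.01 and the median of all features by -0.44. Under that setting 6 members were higher and 5 lower, where 5.88% of all features were higher and 38.9% lower. Setting the medians of all probes equal gave 0.07 for members and -0.39 for all features, again with 6 higher and 5 lower, where 6.2% and 37.3% of all features were. Setting the medians of the detected probes equal gave 0.85 and 0.40, with 36 higher and 1 lower, where 32.4% and 16.3% were. Relative to the median of all features, the members' median was 0.45 higher under each of these 3 settings. They differ only by a constant per array, so that value is the same by construction and counts once. The members' median was 0.82 higher under the main setting. With no background correction, with a normexp offset of 50 and with cyclic loess it was 0.72, 0.73 and 0.90 higher. Between 45 and 51 of the 53 members lay above the median of all features under the 7 scalings.

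Of the 29 members, 6 were called higher under all 7 scalings, namely Rpl3, Rpl10a, Rpl12, Rpl32, Rplp0 and Rps19. With no scaling their differences were 1.17, 1.18, 1.11, 1.17, 1.13 and 0.91. The 5 members called lower with no scaling were Rpl3l (-2.05), Rpl30 (-0.88), Rpl9 (-0.83), Rpl37 (-0.82) and Rps9 (-0.72). Those 5 were also the ones called lower when the medians of all probes were set equal, and 1 of them, Rpl3l, was called lower when the medians of detected probes were set equal. Quantile normalization keeps the order of probes within an array, so the ranks within arrays give the same 46 and 4 members standing apart as the main scaling and are no separate evidence. Relative to the other genes on the same array the ribosomal protein genes stood higher in AT-3 by median under each scaling, whereas without scaling the sign of the difference varied from member to member.

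**Figure D3:**
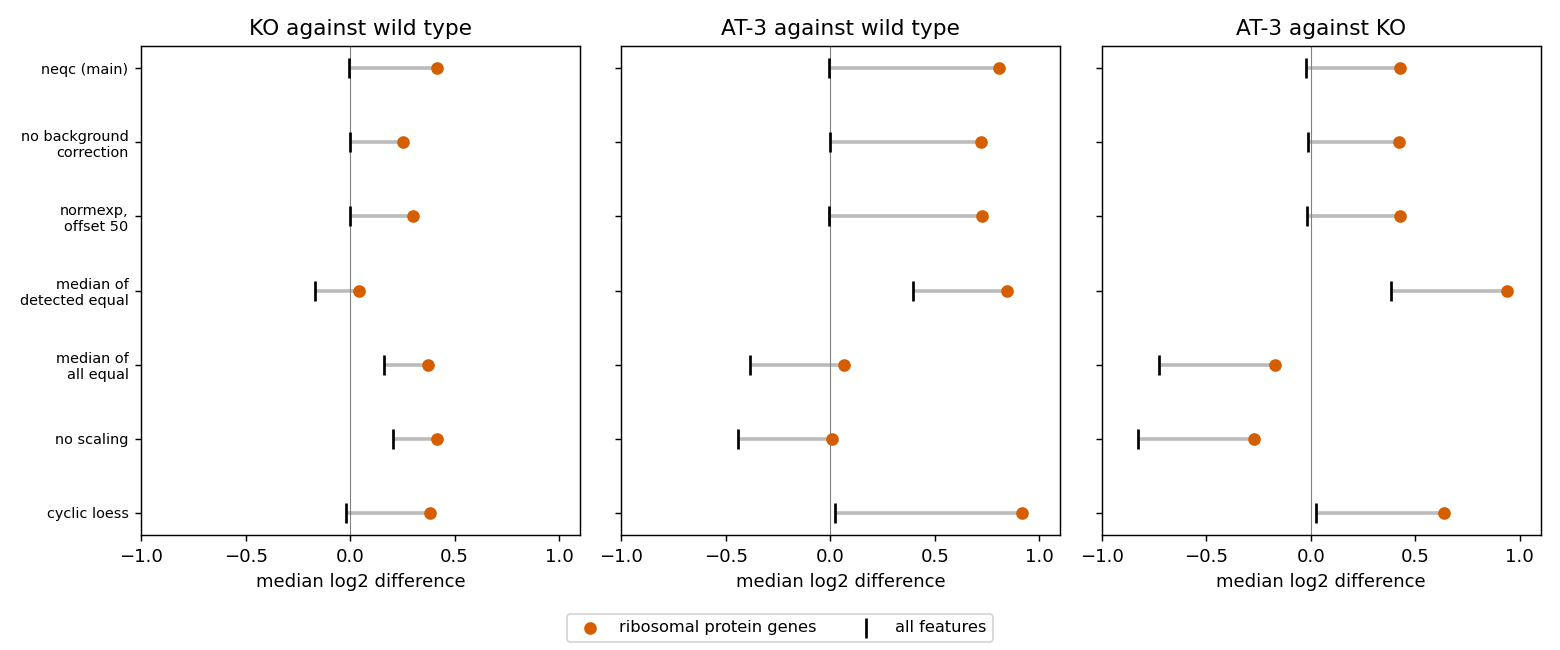
Median log2 difference of the 53 ribosomal protein genes (points) and of all 12492 features (ticks) in the 3 comparisons under 7 ways of putting the arrays on 1 scale. The points lie to the right of the ticks in every row, by 0.21 to 0.90. That distance is the same by construction in the rows with equal medians and with no scaling. The points themselves change sign only for AT-3 against KO. There they are below 0 with the medians of all probes set equal (-0.17) and with no scaling (-0.27).

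Leaving out a wild-type array lowered the count of calls for members, from 29 with all arrays, and the share for all features, from 17.3%. Without wild-type array 1 there were 6 members higher, where 6.64% of all features were, and without wild-type array 2 there were 5, where 6.08% were. Without AT-3 array 1 or 2 the counts were 15 and 18, where 9.79% and 12.1% were. The members' median minus that of all features stayed between 0.78 and 0.87 in these 4 fits. Macrophage and erythroid markers and proliferation genes moved with the same comparison, with the sums given above, and their part in the result was not tested.

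The start of the gene is where the TOP motif would lie. RefSeq promoters (GRCm38.p6) were at hand for 48 of the 59 genes, with 58 starts in all. A C followed by 4 bases that are each C or T began exactly at the annotated start in 9 of the 58 (15.5%), against 2.51% of all 32851 promoters in the table. Such a run began within 10 bases of the start in 34 of the 58 (58.6%), against 30.7% of all. The letters CCGGAAG, searched on both strands from 250 bases before to 50 after the start, were in 23 of the 58 (39.7%) against 8.86% of all. TATAAA on the gene's own strand was in 4 of the 58 (6.9%) against 8.32% of all. The exact pyrimidine start was in 3 of 33 promoters of members higher in AT-3 and in 5 of 21 of those that did not pass, CCGGAAG in 11 and 10 of them, and TATAAA in 4 and 0. A match is a description of the letters only.

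Printed here are 3 members that rose in AT-3 and 3 that did not pass, each with a pyrimidine run across the annotated start, and Rpl12 and Rpl36a, which were among the largest rises and have a run that starts 2 and 9 bases downstream. Each window runs from 20 bases before the start to 30 bases from it on, 5′ to 3′ on the gene's strand, with capitals marking runs of a C and at least 4 bases that are each C or T near the start.
Rps6 (rose), chr4:86857338-86857387, minus strand: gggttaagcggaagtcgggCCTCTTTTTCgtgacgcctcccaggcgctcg
Rpl28 (rose), chr7:4792945-4792994, plus strand: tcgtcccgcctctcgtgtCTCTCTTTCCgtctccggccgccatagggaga
Rpl35 (rose), chr2:39005102-39005151, minus strand: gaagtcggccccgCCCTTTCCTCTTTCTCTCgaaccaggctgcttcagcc
Rpl38 (did not pass), chr11:114668560-114668609, plus strand: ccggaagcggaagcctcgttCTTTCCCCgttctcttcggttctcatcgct
Rplp2 (did not pass), chr7:141447631-141447680, plus strand: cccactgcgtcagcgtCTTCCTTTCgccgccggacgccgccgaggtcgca
Rps10 (did not pass), chr17:27635215-27635264, minus strand: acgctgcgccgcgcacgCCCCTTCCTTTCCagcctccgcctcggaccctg
Rpl12 (rose), chr2:32961692-32961741, plus strand: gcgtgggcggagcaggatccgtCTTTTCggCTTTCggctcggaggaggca
Rpl36a (rose), chrX:134585634-134585683, plus strand: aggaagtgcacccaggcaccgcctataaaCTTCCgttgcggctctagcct

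The comparison of KO with wild type asks what the loss of IRF8 alone does in mice without a tumor. Here 6 of the 53 members were higher, 1 was lower and 46 did not pass, where 15.4% of all features were higher and 16.5% lower. The share of members called higher, 11.3%, is below that background. The median member differed by 0.42 and the median of all features by -0.01. In limma 13 members were higher and 1 lower at an unadjusted p under 0.05. The shares of all features at that threshold are not given here, but cannot be below the 15.4% and 16.5% called. KO signals lay above both wild-type signals for 30 members and below for 4, where 34.5% and 34.7% of all features did.

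The 6 higher genes were Rpl32, Rpl4, Rpl31, Rps19, Rps4x and Rpl28, and each of them was also higher in AT-3 (the comparisons share the wild-type arrays). Rpl31, which sits beside the exit tunnel, had the closest KO pair, at 12.96 and 12.93 against 11.86 and 11.96 in wild type (1.04 ± 0.20, adjusted p = 0.00865). Its AT-3 signals of 13.15 and 12.99 were near the KO ones. Rpl32 rose by 1.24 ± 0.34 (adjusted p = 0.0286), Rpl4 by 1.13 ± 0.31 (adjusted p = 0.0313) and Rps19 by 1.00 ± 0.30 (adjusted p = 0.0395). For these 3 the first KO array was 0.84 to 0.97 above the second. Rps4x, at 13.32 and 12.78 against 12.25 and 12.17, rose by 0.85 ± 0.25 (adjusted p = 0.0366). Rpl28, at 13.11 and 12.86 against 12.15 and 12.26, rose by 0.78 ± 0.21 (adjusted p = 0.0298).

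Rpl3l, the paralog that takes the place of Rpl3 in heart and skeletal muscle, went the other way. Its probe read 2138.1 and 2155.7 in wild type, 471.4 and 908.5 in KO and 629.9 and 562.7 in AT-3, and it was detected on all 6. On the log2 scale the values were 10.69 and 10.79, 8.04 and 9.30, and 9.86 and 9.83, so that both other groups lay below wild type without overlap. It fell by 2.07 ± 0.39 in KO (adjusted p = 0.0071), a call made under all 7 scalings. The AT-3 difference of -0.90 ± 0.39 did not pass in the main setting (adjusted p = 0.113). Its parent Rpl3 had the opposite sign, at 11.37 and 11.31 in wild type and 13.06 and 11.89 in KO (1.13 ± 0.37, adjusted p = 0.0527). Rpl3l has 1 probe, and which transcript that probe reads was not checked, since no probe sequence was used here.

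The KO arrays differed from each other more than either other pair. KO array 1 read higher than KO array 2 for 45 of the 53 members (84.9%), where it did so for 46.7% of all features. The median gap between paired arrays, without sign, was 0.42 in KO, 0.11 in AT-3 and 0.11 in wild type over the members, and 0.31, 0.27 and 0.18 over all features. A gap above 0.5 occurred for 22 of the 53 members in KO, where it did so for 29.9% of all features. It occurred for 6 members in AT-3 and 3 in wild type, for which the share of all features is not given here. Rpl36a had the widest of those described, with KO signals of 11.21 and 9.26.

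**Figure D4:**
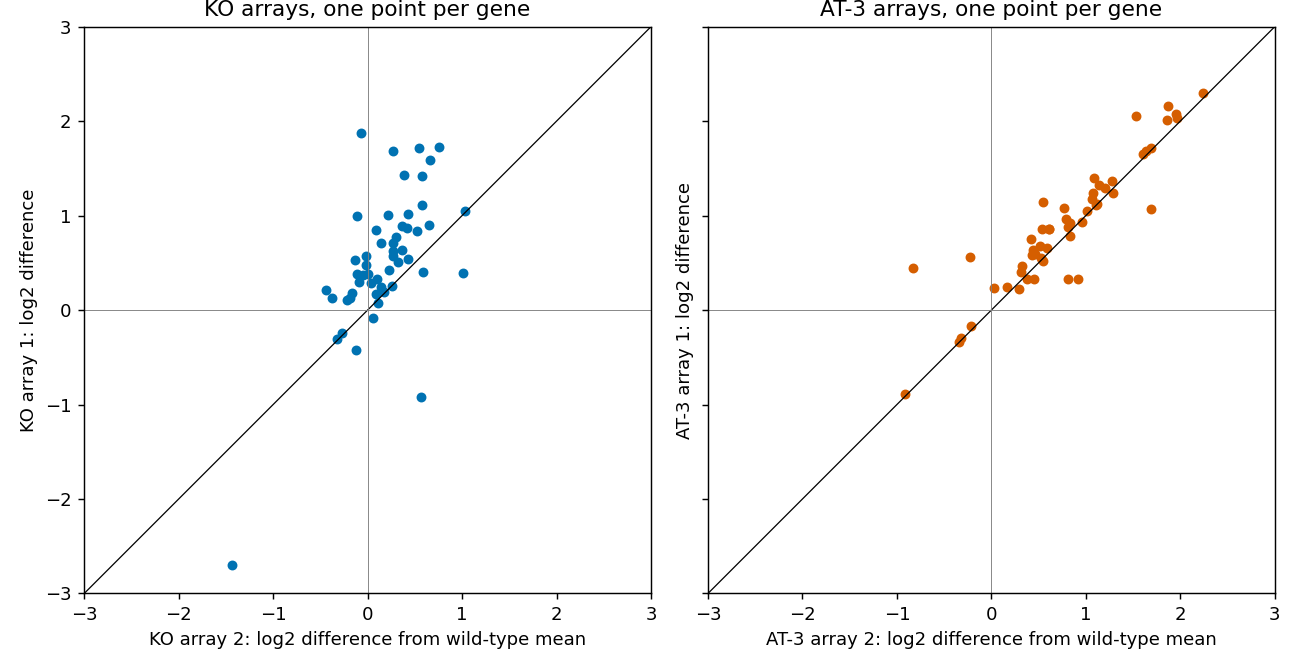
Log2 difference from the wild-type mean for each of the 53 ribosomal protein genes on array 1 (vertical) against array 2 (horizontal) of the same group, with the line of equality. Most KO points lie above the line, 45 of 53, and the AT-3 points lie close to it.

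The KO calls therefore rested on which array was used. Without KO array 1, 1 member was higher, where 11.3% of all features were, and without KO array 2 there were 18, where 17.2% were. Without wild-type array 1 or 2 there were 0 in limma, where 6% and 5.54% of all features were, and the unadjusted count with all arrays was 13. Without AT-3 array 1 or 2, which serve only the estimate of spread, there were 3 each, where 14.1% of all features were. The median of the members minus that of all features was 0.17 without KO array 1 and 0.53 without KO array 2. The same 2 arrays differed in the summed signal of proliferation genes, 32304 against 11067, and of T and NK cell markers, 6489 against 4841, and less in that of progenitor markers, 3145 against 2751, and the part of those cells in the result was not tested. With no scaling 10 members were higher and 1 lower, where 24% and 13.2% of all features were. With the medians of all probes equal it was 7 and 1, where 22.4% and 14.2% were, and with the medians of detected probes equal 1 and 2, where 14.9% and 22.3% were. Rpl4 was the only member called higher under all 7 scalings.

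The comparison of AT-3 with KO sets the tumor-bearing mice against the knockout. Of the 53 members 5 were higher and 48 did not pass, where 6.16% of all features were higher and 5.34% lower. At an unadjusted p under 0.05 there were 17 higher and 1 lower, Rpl9, and no member was lower at the adjusted threshold in limma. The unadjusted shares of all features are not given here, but cannot be below the 6.16% and 5.34% called. The median was 0.43 for members and -0.02 for all features, and AT-3 signals lay above both KO signals for 37 members and below for 1, where 25.6% and 29% of all features did.

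The 5 were Rpl13a (1.38 ± 0.28, adjusted p = 0.0233), Rplp0 (1.36 ± 0.29, adjusted p = 0.0277), Rpl19 (1.16 ± 0.28, adjusted p = 0.0422), Rpl29 (1.00 ± 0.24, adjusted p = 0.0427) and Rps26 (0.93 ± 0.22, adjusted p = 0.0403). In Rpl29 the log2 signals were 10.98 and 10.47 in KO and 11.82 and 11.63 in AT-3, with wild type at 10.55 and 10.44. A dimmer Rpl29 probe, detected on all 6 arrays, differed by 0.525 and did not pass (limma on every probe, adjusted p = 0.165). In Rps26 they were 12.52 and 12.14 in KO and 13.26 and 13.25 in AT-3, with wild type at 12.11 and 12.15. In both genes the AT-3 arrays stood apart while KO and wild type overlapped. Rpl9, which lies near the stalk base, had AT-3 signals of 13.64 and 13.59 below KO signals of 14.35 and 14.24 (-0.68 ± 0.20, adjusted p = 0.0722).

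This comparison was the one that turned with the scaling. The members' median was -0.17 with the medians of all probes set equal and -0.27 with no scaling, and 0.94 with the medians of detected probes set equal. With the medians of all probes equal 0 members were higher and 5 lower, where 2.99% and 48.7% of all features were. With no scaling it was 0 and 9, where 2.73% and 54% were, and with the medians of detected probes equal 35 and 0, where 31.9% and 5.36% were. None of the 5 was called higher under all 7 scalings. Relative to all features the members' median was 0.44 to 0.62 higher under every scaling run. The settings with equal medians and with no scaling share the same value by construction. Without KO array 1 there were 16 higher, where 7.06% of all features were, and without any other single array 0 or 1, where 2.44% to 4.35% were. Erythroid markers were higher in AT-3 for 5 of 5, and their part in the result was not tested.

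Over the 3 comparisons 23 members were called in none, and 39 of 53 had group means in the order wild type, KO, AT-3. At the adjusted threshold 6 were higher than wild type in both KO and AT-3, and 5 were higher in AT-3 than in either other group. The shares of all features with these patterns are not given here, so whether the counts differ from the background cannot be told. Any pair of these comparisons shares the arrays of a group, so the overlaps are not independent evidence.

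Several probes of 1 gene did not always give 1 answer. Of 14 genes with more than 1 detected probe, 5 had called and uncalled probes in AT-3 against wild type, 4 in KO against wild type and 3 in AT-3 against KO, and none had probes called in opposite directions. With every detected member probe tested on its own, 36 of 72 were higher in AT-3 than in wild type and 1 was lower, where 15.4% and 17.2% of all 17631 probes were. The 3 probes of Rpl31 were higher in both comparisons with wild type, by 1.16 to 1.95 in AT-3. The second probe of Rpl38, a protein needed for tissue patterning in mouse embryos, was higher in AT-3 (1.68, adjusted p = 0.00326) while its brighter probe did not pass (0.59). The 3 probes of Rps24, whose transcripts are alternatively spliced, had AT-3 minus wild-type differences of 0.16, 1.91 and 0.88, of which the last 2 passed. Rps13 had its brighter probe at 0.51, not passed, and a second probe that fell by 1.59 (adjusted p = 0.00788).

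The machinery around the ribosome was read from lists of named genes, chosen as stated with the methods. Their counts stand beside the 17.3% of all features called higher and 17.6% lower in AT-3, and the 15.4% higher and 16.5% lower in KO, against wild type. For ribosome biogenesis factors in AT-3 against wild type 19 of the 37 tested of 49 on the array were higher and 0 lower (23 and 0 at an unadjusted p under 0.05), with a median of 0.81. In KO 5 were higher and 1 lower, with a median of 0.21, and in AT-3 against KO 6 were higher, where 6.16% of all features were. Npm1, the nucleolar chaperone nucleophosmin, was at 9.86 and 9.91 in wild type, 11.40 and 10.51 in KO and 11.95 and 12.02 in AT-3, and it rose in AT-3 by 2.10 ± 0.31 (adjusted p = 0.00311) and in KO by 1.07 ± 0.31 (adjusted p = 0.0348). Nop58, a core protein of box C/D snoRNPs, rose in AT-3 by 2.03 ± 0.39 (adjusted p = 0.00784). Heatr1, a factor of early rRNA processing, rose in AT-3 by 1.82 ± 0.25 (adjusted p = 0.00241) and stood 1.60 above KO (adjusted p = 0.00941).

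RNA polymerase I and its factors had 2 of 13 higher and 2 lower in AT-3 and 1 higher and 2 lower in KO, shares near or below those of all features. The subunit gene Polr1e rose by 1.72 in AT-3 (adjusted p = 0.00384) and 1.04 in KO (adjusted p = 0.0246). Ubtf, which opens rDNA for transcription, went from 9.42 and 9.40 in wild type to 8.26 and 8.13 in KO and 7.91 and 8.56 in AT-3, so that it fell by 1.22 in KO (adjusted p = 0.0126) and fell by 1.18 in AT-3 (adjusted p = 0.0136). Twistnb, a further subunit gene, fell by 1.19 in KO (adjusted p = 0.0073) and fell by 1.27 in AT-3 (adjusted p = 0.00557).

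Elongation factors and other mRNAs with a TOP motif had 8 of 13 higher in AT-3 and 2 in KO (Eef2 and Npm1, the latter also on the biogenesis list), with none lower (0 lower also at an unadjusted p under 0.05, limma). Eef2, which moves the ribosome along mRNA, had log2 signals of 7.33 and 6.06 in wild type, 9.63 and 8.78 in KO and 9.56 and 9.50 in AT-3. It rose by 2.51 ± 0.45 in KO (adjusted p = 0.00592) and 2.84 ± 0.45 in AT-3 (adjusted p = 0.00394), with a wide gap between its wild-type arrays. Eef2k, the kinase that inhibits Eef2, was at 8.20 and 8.17, then 6.71 and 5.89, then 5.17 and 4.86, and fell by 1.88 in KO (adjusted p = 0.00405) and fell by 3.17 in AT-3 (adjusted p = 0.000891). No group overlaps another for this kinase, whose probe was detected on 1 of the 2 AT-3 arrays.

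Eef2k belongs to the list of growth control genes, of which 2 of 15 were higher and 3 lower in AT-3, and 2 higher and 4 lower in KO, to be read against the shares of all features given with the lists. Mxd1, an antagonist of Myc, fell by 1.30 in AT-3 (adjusted p = 0.00729) and fell by 0.90 in KO (adjusted p = 0.0289). Rptor, the scaffold of mTORC1, rose by 0.98 (adjusted p = 0.0229) and 1.31 (adjusted p = 0.00815) in the same order. Max, the partner of Myc, rose by 1.61 in KO (adjusted p = 0.0123).

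Mitochondrial ribosomal proteins, which serve the separate ribosome of that organelle, had 41 of 71 higher and 0 lower in AT-3 (46 and 1 at an unadjusted p under 0.05) and 24 higher and 4 lower in KO. Their medians were 0.99 and 0.42, against 0.81 and 0.42 for the cytosolic set. Mrpl21 rose by 2.78 in AT-3 (adjusted p = 0.000891) and 1.41 in KO (adjusted p = 0.00766), whereas Mrps28 fell by 2.36 in KO (adjusted p = 0.00329). Translation initiation factors had 15 of 39 higher and 2 lower in AT-3, and 8 and 3 in KO. Eif3c rose by 2.06 in AT-3 (adjusted p = 0.0109) and 2.58 in KO (adjusted p = 0.00479), while Eif2ak3, the stress kinase that blocks initiation, fell by 2.61 in AT-3 (adjusted p = 0.0013) and fell by 1.62 in KO (adjusted p = 0.00548). The difference between these sets was not tested.

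**Figure D5:**
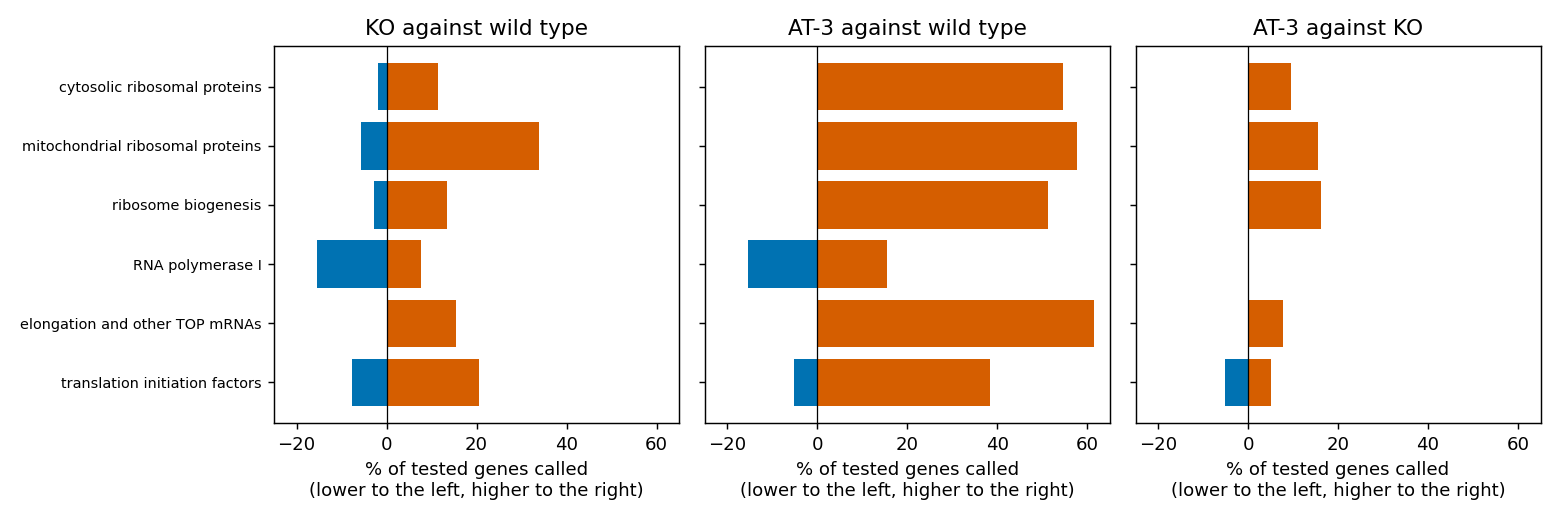
Share of the tested genes of each group called higher (to the right) or lower (to the left), in percent, in the 3 comparisons under the main scaling. Cytosolic ribosomal proteins had 54.7% higher in AT-3 against wild type and 11.3% in KO against wild type, and RNA polymerase I genes were called in both directions against wild type.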

How the data were processed

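The authors' deposited table gives a linear signal intensity per probe and array and, per the file headers, a detection p-value beside each. The submitters' processing notes name GenomeStudio, with no step. The deposited series matrix holds log2 values that equal quantile-normalized log2 intensities without background correction to within 0.0842, and they were used as an alternative. Symbols came from the platform annotation, which gave 1 symbol to 34885 probes, several to 18 and none to 10378.

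The neqc function of limma 3.58.1 (R 4.3.3) took the intensities through normexp background correction, an offset of 16, quantile normalization and log2. After the detection filter 17631 probes remained. With each gene taken at its brightest probe there were 12492 features. Group means over all 6 arrays were fitted with lmFit and eBayes, and a Benjamini-Hochberg adjusted p under 0.05 over all features is a call. The fit was tested on simulated data. With 2 arrays per group, the number of arrays limits the precision, and the median SE of a member's log2 difference was 0.24.

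Named members were the 10 largest rises and falls called per comparison, the 5 brightest and 5 dimmest, the stalk, the anemia genes, the paralogs, and up to 3 genes per list with the largest change; Rps2, Rps6 and others beyond the rule were chosen after their values were seen. Members and lists were chosen with earlier results of these data known. Alternatives covered background, scaling, filter, probe choice, model, threshold and each array left out. The ranks within arrays were added after seeing the data.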

Additional observations from a re-analysis of the deposited data

How the results depend on the processing

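Of the 506 values of named members under the alternatives, 387 kept direction and side of the threshold, 117 kept direction but no longer passed, and 2 reversed. KO calls (6 higher, 1 lower) became 11 higher with no background correction, with a normexp offset of 50 and with every probe on its own, 10 with the deposited log2 values and with no scaling, 12 with trend and robust eBayes, 3 with no detection filter and with only the 4 arrays compared, and 1 at an adjusted p under 0.01. With the medians of detected probes equal they were 1 higher and 2 lower. AT-3 against wild type (29 higher, 0 lower) became 6 higher and 5 lower with the medians of all probes equal and with no scaling, each with a median relative to all features of 0.45, as with the medians of detected probes equal, where 1 was lower. One was lower also with the dimmest probe, with every probe on its own and with only the 4 arrays compared, and 15 were higher at an adjusted p under 0.01. AT-3 against KO (5 higher, 0 lower) became 35 higher with the medians of detected probes equal, 0 higher and 5 lower with the medians of all probes equal, and 0 higher and 9 lower with no scaling, where Rpl29 reversed (-0.000159 and -0.0985). With no detection filter it became 1 higher and 1 lower of 59 genes, where 1.93% and 1.43% of all features were. It became 0 higher at an adjusted p under 0.01 or with only the 4 arrays compared. One was lower also with no background correction, a normexp offset of 50, the deposited log2 values, the strict detection filter, and trend and robust eBayes. Leaving out each array in turn gave 0 to 18 higher and 0 to 1 lower in KO against wild type, with a relative median of 0.167 to 0.534, 5 to 31 higher and 0 to 1 lower in AT-3 against wild type, and 0 to 16 higher in AT-3 against KO. Fewer arrays leave fewer residual degrees of freedom. The causes of the other changes were not tested.

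Same-numbered arrays did not deviate together (correlations of 0.09, -0.06 and 0.01 between groups). A replicate block gave 7 higher and 1 lower, 25 and 0, and 4 and 0 in the 3 comparisons.

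Limits are the 2 arrays per group, the unlike KO pair, the lower signal of both AT-3 arrays, where array and group cannot be told apart, probes near background (Rpl21, Rpsa, Rplp0) and probes near the top of the signal range.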
